A study of Mus musculus with 28 samples.

Results

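The type I interferon antiviral effector genes are a set of 43 listed genes that type I interferon is known to induce, together with the factors that carry its signal into the nucleus. They were taken from the array by symbol alone, using probesets (groups of probes that report 1 transcript) assigned to exactly 1 of the listed symbols. Of the 43 genes, 39 were measured, each by 1 probeset, out of 19272 genes with such a probeset. Isg15, Oas1g, Ifi44 and Uba7 had none and were not analysed here. A further 2 measured genes, Oas1b and Cmpk2, fell below the signal filter, so that 37 entered the tests, out of 14325 genes tested.

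The arrays (Affymetrix Mouse Gene 1.0 ST) reported dendritic cells, the antigen-presenting cells that patrol tissues, sorted from mouse kidneys by CD45, CD11c and MHC class II. There were 8 populations on 28 arrays. Homeostatic cells came from kidneys of C57BL/6 mice and of BALB/c mice, each split into cortex and medulla, with 4 arrays per population. The other populations came from renal allografts 3 days after transplantation and were again split into cortex and medulla, with 3 arrays each. Donor cells in these grafts were CD45.2 and BALB/c, and host cells were CD45.1 and C57BL/6 by label. The labels give no age, and no transgene or targeted allele. They give 11 mouse numbers: each homeostatic mouse gave 1 cortex and 1 medulla array, and each of the 3 grafts (mice 6, 7 and 8, replicates 1, 2 and 3 of every graft group) gave all 4 graft populations. No homeostatic group carried an operated kidney, so surgery, ischaemia and the alloresponse cannot be told apart in any comparison of graft with homeostatic cells. Host cells had also entered the graft from outside it, and this cannot be told apart from the rest in their comparison with homeostatic cells.

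Type I interferons are secreted when a cell senses foreign or misplaced nucleic acid. They bind the receptor chains IFNAR1 and IFNAR2, whose kinases activate a transcription factor complex that includes STAT2 and IRF9. It binds the interferon-stimulated response element (ISRE) in the promoters of effector genes. The effectors act on many steps of viral growth: IFITM proteins at entry, MX proteins on incoming nucleocapsids, OAS enzymes through RNase L, IFIT proteins on foreign RNA, and tetherin (Bst2) on budding virions. Dendritic cells both make and respond to these cytokines, and plasmacytoid dendritic cells are known for the largest output.

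The ISRE core is written GAAANNGAAA and was searched on both strands of RefSeq promoters, from 250 bases before to 50 bases after each gene's start. A promoter was available for 31 of the 43 listed genes, and 13 of these 31 (41.9%) held the core. Among all 27025 genes with a promoter in the same table, 3.99% held it. The interferon-gamma element TTCNNNGAA was found in 6 of the 31 (19.4%), against 9.55% of all genes. A match is a description of the letters and not a measured binding site. The 6 promoter stretches printed here (RefSeq, GRCm38.p6) belong to members on which the comparisons turn and which hold the core. Each runs 5′ to 3′ on the gene's own strand, with 40 flanking bases where the window allowed, and capitals mark the ISRE core on either strand.
Ifit3b, chr19:34607729-34607852, plus strand, bases -228 to -105 around the start: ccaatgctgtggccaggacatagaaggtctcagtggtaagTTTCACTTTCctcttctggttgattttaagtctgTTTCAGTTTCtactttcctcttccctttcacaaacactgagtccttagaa
Ifit3, chr19:34583333-34583456, plus strand, bases -196 to -73 around the start: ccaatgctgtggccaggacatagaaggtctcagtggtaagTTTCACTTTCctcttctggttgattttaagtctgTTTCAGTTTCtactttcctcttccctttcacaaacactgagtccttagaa
Bst2, chr8:71537547-71537642, minus strand, bases -170 to -75 around the start: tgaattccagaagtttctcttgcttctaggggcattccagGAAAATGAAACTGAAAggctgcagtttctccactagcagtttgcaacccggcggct
Oas1a, chr5:120907490-120907585, minus strand, bases -60 to 36 around the start: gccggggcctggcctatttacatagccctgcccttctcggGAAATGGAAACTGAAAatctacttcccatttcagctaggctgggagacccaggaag
Ifitm3, chr7:141010695-141010782, minus strand, bases -38 to 50 around the start: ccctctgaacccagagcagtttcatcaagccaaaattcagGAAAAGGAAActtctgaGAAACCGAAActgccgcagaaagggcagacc
Ifih1, chr2:62646206-62646263, minus strand, bases -8 to 50 around the start: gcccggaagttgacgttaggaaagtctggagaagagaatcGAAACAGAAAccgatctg
The pair of cores and the bases around them were the same letter for letter in the stretches of Ifit3b and Ifit3, which are neighbouring copies of 1 gene. Over 268 overlapping promoter bases aligned without gaps, 201 (75%) were identical between these copies. In Bst2 and Oas1a the cores overlap each other. One core each in Bst2 and Ifitm3 also overlaps a match to the interferon-gamma element. These members were printed because they hold the core, so the shared element is not a result. Their values, given next, differed from one another.

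Values are log2 signals, and a difference of 1 on this scale is a doubling of signal. Differences are given with the standard error (SE) of a model fitted across all tested genes and all 28 arrays. A gene was called when its p, adjusted over 14325 genes, was under 0.05. Where members are counted at an unadjusted p under 0.05, the share of all genes at that level was not counted. The shares given beside such counts are of called genes and are not comparable with them. Each array's mean correlation with its own group was 0.894 to 0.911 in homeostatic C57BL/6 cells, 0.815 to 0.874 in graft cells and 0.613 to 0.815 in homeostatic BALB/c cells, where medulla replicate 1 was the lowest. The sort markers themselves differed between populations. Itgax, which encodes CD11c, had a log2 signal of 11.32 ± 0.31 (SD, n = 4) in C57BL/6 cortex and 11.09 ± 0.21 in C57BL/6 medulla. The graft medulla lay lower, at 7.38 ± 0.19 (SD, n = 3) in donor and 7.66 ± 0.45 in host cells. Across 21 genes shared by leukocytes (the leukocyte-wide list) the mean was 11.47 ± 0.04 in C57BL/6 medulla and 8.73 ± 0.57 in host medulla, and a list of 14 epithelium-wide genes averaged 7.86 ± 0.14 and 10.10 ± 0.29 in these groups. Donor medulla lay at 9.96 ± 0.71 and 9.85 ± 0.16. Fewer cells of a type and less RNA per cell cannot be told apart in sorted bulk RNA, and the part of these shifts in the interferon results was not tested.

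**Figure D1:**
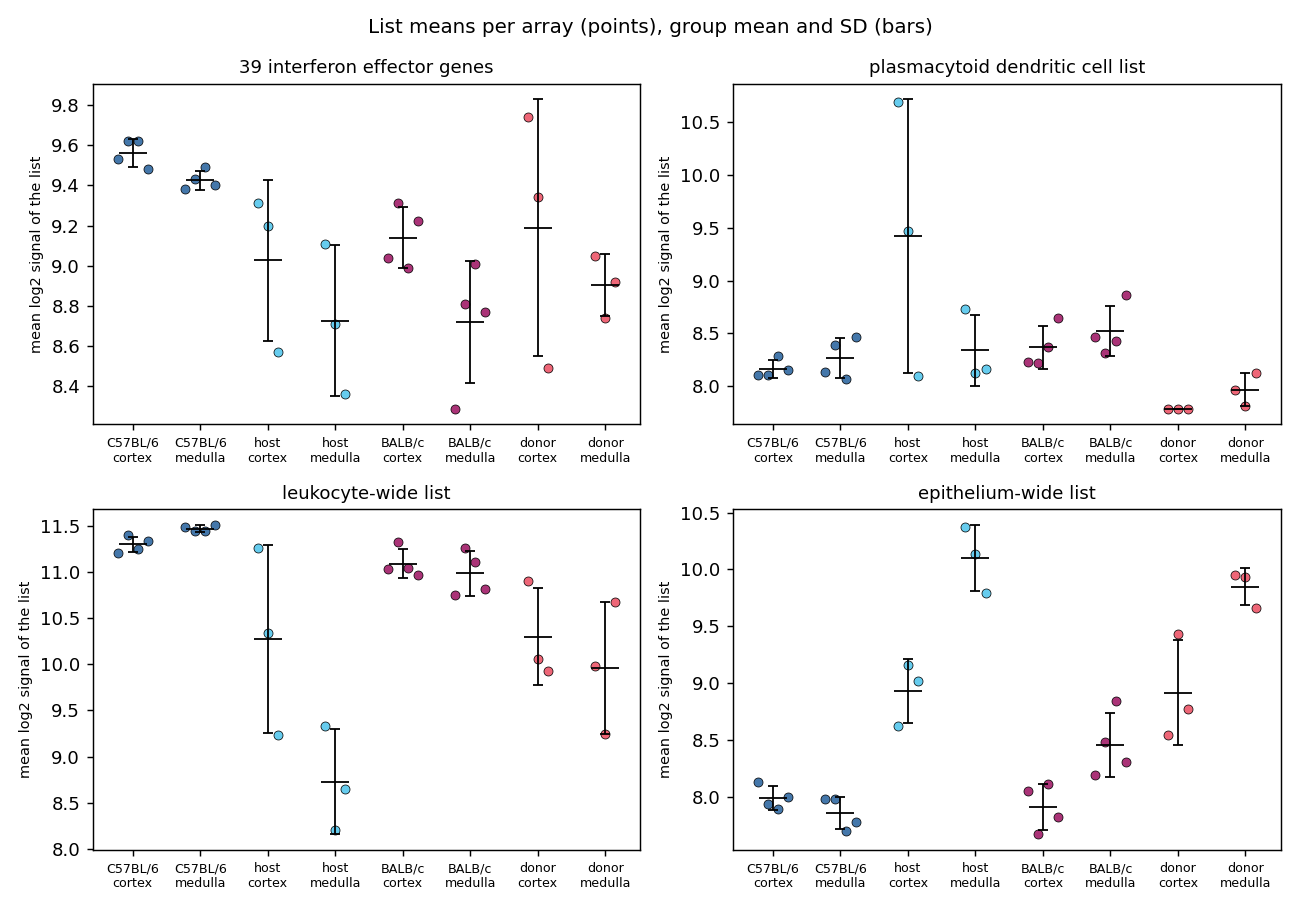
Mean log2 signal per array (points, coloured by population) of the 39 measured interferon effector genes and of the plasmacytoid dendritic cell, leukocyte-wide and epithelium-wide lists, with group mean and SD (bars). The effector genes sit between 8.29 and 9.74 on all 28 arrays, the leukocyte-wide list is lowest in host medulla (8.73 ± 0.57) and the plasmacytoid list is spread from 8.10 to 10.69 in host cortex.

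The 39 measured effector genes had their highest mean in homeostatic C57BL/6 cells and their lowest in BALB/c and host medulla. The mean log2 signal was 9.56 ± 0.07 (SD, n = 4) in C57BL/6 cortex, 9.42 ± 0.05 in C57BL/6 medulla, 9.14 ± 0.15 in BALB/c cortex and 8.72 ± 0.31 in BALB/c medulla. In the grafts it was 9.19 ± 0.64 (SD, n = 3) in donor cortex, 8.90 ± 0.16 in donor medulla, 9.02 ± 0.40 in host cortex and 8.73 ± 0.38 in host medulla. The C57BL/6 arrays spanned 9.48 to 9.62 in cortex and 9.38 to 9.49 in medulla, whereas the 3 donor cortex arrays gave 9.74, 9.34 and 8.49. Graft mouse 8 gave the lowest mean in donor cortex (8.49), host cortex (8.57) and host medulla (8.36), but not in donor medulla (8.92, against 8.74 for mouse 7). Across the 16 comparisons made, 18 of the 37 tested members were called at least once, giving 26 calls in all, and 19 were never called.

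**Figure D2:**
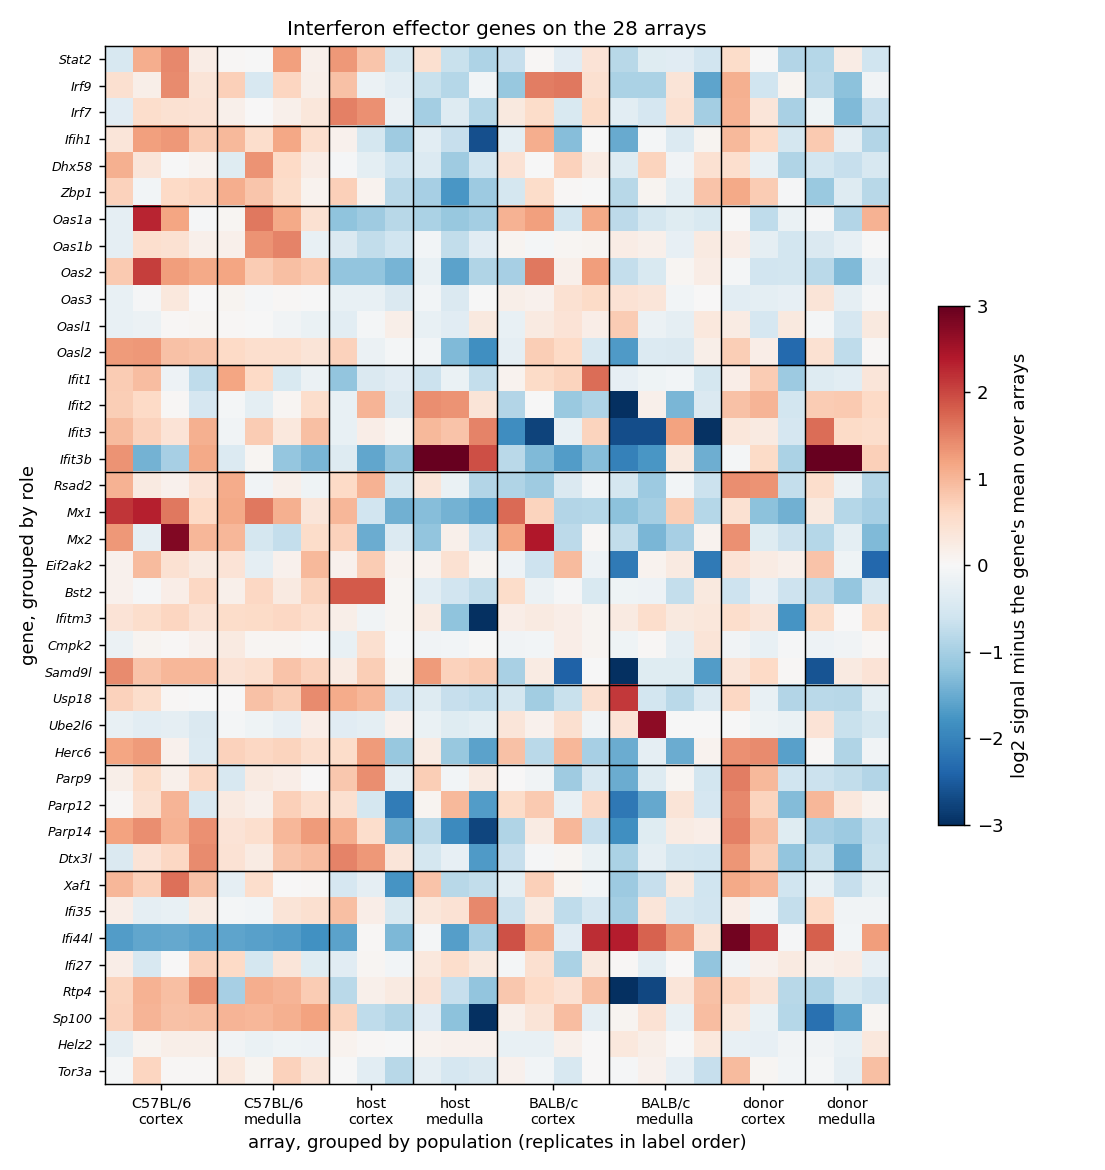
Log2 signal of the 39 measured genes (rows, grouped by role) on the 28 arrays (columns, grouped by population), each minus the gene's own mean over the arrays; colours saturate at 3 in either direction. Ifit3b stands out in host and donor medulla, Ifi44l in the BALB/c and donor populations, and the third array of host medulla is low for Ifih1, Ifitm3, Parp14 and Sp100.

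Between medulla and cortex of homeostatic kidneys no effector gene passed the test in either strain. In C57BL/6 cells the 37 members had a median difference (medulla minus cortex) of -0.11, against 0.02 over all genes, with 1 member at an unadjusted p under 0.05 by limma; 0.154% of all genes were called. Differences in BALB/c cells had a median of -0.35 against 0.03, with 29 of 37 below 0 and 7 at an unadjusted p under 0.05, while 0.0698% of all genes were called. With so few genes called anywhere, the absence of member calls matches the background and does not show that the regions are alike.

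Between the strains the largest called differences in signal were those of the Ifi44l probeset, which reports an interferon-induced gene of the IFI44 family. Probe sequences were not analysed here, so whether this probeset reports the transcripts of both strains equally was not tested. Its log2 signals were 6.56, 6.66, 6.69 and 6.63 in C57BL/6 cortex and 6.65, 6.59, 6.55 and 6.40 in C57BL/6 medulla. BALB/c arrays gave 10.13, 9.37, 7.89 and 10.43 in cortex and 10.59, 10.00, 9.55 and 8.60 in medulla. All 8 BALB/c arrays lay above all 8 C57BL/6 arrays. Ifi44l exceeded the filter level of its array (the 40th percentile, 7.27 to 7.63) on 0 of 4 C57BL/6 arrays in either region, so it entered the tests through the other groups. Where a group lies in this dim range, a difference from it may understate the change. The difference (BALB/c minus C57BL/6) was 2.82 ± 0.59 (SE; adjusted p = 0.0059) in cortex and 3.14 ± 0.59 (adjusted p = 0.0051) in medulla. The grafts kept that order in part: donor arrays gave 11.12, 10.33 and 8.20 in cortex and 10.02, 8.15 and 9.47 in medulla, and host arrays gave 6.61, 8.25 and 6.88 and 8.17, 6.58 and 7.22. In each region 1 donor array lay just below the highest host array.

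Most other members leaned the opposite way, toward higher signal in C57BL/6 cells. In homeostatic cortex 30 of 37 members were below 0 (median -0.45, against 0.09 over all genes), and Ifi44l was the only call (1 of 37 higher, against 7.87% of all genes called higher). Without BALB/c cortex replicate 1, Mx1 was also called, at -2.02 ± 0.60 (adjusted p = 0.039). In homeostatic medulla 32 of 37 were below 0 (median -0.76 against 0.17) and 18 had an unadjusted p under 0.05; Ifi44l was called higher (6.47% of all genes were) and 2 members lower (2.63% of all genes were). The lower calls were Ifit3, an RNA-binding antiviral protein, at -2.24 ± 0.70 (adjusted p = 0.047), and Samd9l, a translation inhibitor, at -2.25 ± 0.68 (adjusted p = 0.043). Ifit3 gave 10.62, 11.49, 11.04 and 11.62 in C57BL/6 medulla and 8.06, 8.06, 11.92 and 7.76 in BALB/c medulla, so 1 BALB/c array exceeded all the C57BL/6 arrays. Samd9l gave 11.87, 11.94, 12.31 and 12.14 in C57BL/6 medulla and 7.33, 11.09, 11.08 and 9.76 in BALB/c medulla, with no overlap. Both calls depended on single arrays. Ifit3 was lost without any 1 C57BL/6 medulla array or without BALB/c medulla replicate 1, 2 or 4 (adjusted p 0.0679 to 0.162), and Samd9l without any 1 C57BL/6 array or BALB/c replicate 1 or 4 (0.0731 to 0.181). Without BALB/c medulla replicate 3, the array high for Ifit3, 7 members were called, now also Mx1 (-2.07 ± 0.62), Eif2ak2 (-1.69 ± 0.57) and Rtp4 (-2.23 ± 0.69) lower and Helz2 (0.41 ± 0.13) higher. In that refit the share of all genes called rose as well, to 16.3% from 9.1% in the reported fit. In the same comparison the pan dendritic cell list had 4 of 7 genes called lower and Itgax was lower by 2.66 ± 0.52 in BALB/c cells; its part in these differences was not tested.

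Donor cells of the graft cortex, compared with homeostatic BALB/c cortex, showed almost no called change in effector genes although 23.9% of all genes were called. Only Oas3 was called, lower by 0.62 ± 0.17 (SE; adjusted p = 0.011), from 7.89, 7.84, 8.18 and 8.28 in BALB/c cortex to 7.40, 7.41 and 7.47 in donor cortex, with no overlap. OAS enzymes make the oligoadenylates that switch on RNase L. The call and the lack of overlap come from the same arrays, so this is not separate support. The donor signals lie near the filter level (7.27 to 7.63), which Oas3 exceeded on 3 of 3 donor cortex arrays. The strict filter (a mean over all arrays above the median probeset) leaves Oas3 out of the tests. In a limma fit of only the groups compared the call was lost (adjusted p = 0.0812). Oas3 is 1 of 37 members called lower, while 16% of all genes were called lower in this comparison. The members' median was 0.03, against -0.13 over all genes, and 19 of 37 were above 0.

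Some other members in donor cortex turned on 1 graft, mouse 8, whereas the Oas3 call did not. Rsad2, which encodes viperin, a radical SAM enzyme that makes a chain-terminating nucleotide, gave 7.25, 7.09, 7.72 and 8.07 in BALB/c cortex and 9.55, 9.50 and 7.43 in donor cortex. The donor arrays of mice 6 and 7 lay above every BALB/c array and the array of mouse 8 among them. Its difference over all arrays was 1.30 ± 0.48 (adjusted p = 0.053). Parp9 and Dtx3l, an ADP-ribosyltransferase and its ubiquitin ligase partner, gave 10.91, 10.35 and 8.76 and 10.37, 9.79 and 7.87 in donor cortex, against 8.30 to 9.38 and 8.35 to 9.11 in BALB/c cortex. Without the graft arrays of mouse 8, an alternative chosen after seeing the data, 4 members were called: Rsad2 (1.99 ± 0.37, adjusted p = 0.0012), Parp9 (1.67 ± 0.37, adjusted p = 0.0035) and Dtx3l (1.25 ± 0.37, adjusted p = 0.017) higher, and Oas3 lower. In that refit 32.7% of all genes were called, so 4 of 37 members is not above the background. Donor cortex replicate 3 alone left out gave the same 3 higher calls. Without BALB/c cortex replicate 1, Oas2 was also called, at -1.40 ± 0.38 (adjusted p = 0.013).

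In donor cells of the graft medulla the IFIT genes carried the largest differences. IFIT proteins bind foreign RNA and block its translation. Ifit3b gave 11.25, 10.79 and 8.23 in donor medulla and 5.51, 5.79, 7.82 and 6.05 in BALB/c medulla. The groups did not overlap, although the array of mouse 8 lay close to the highest BALB/c array. The difference was 3.80 ± 0.72 (SE; adjusted p = 0.008), the only call among the 37 members, while 1.73% of all genes were called higher. Only 1 of 4 BALB/c medulla arrays exceeded the filter level, so the difference is from a signal in the dim range. The call was lost without donor medulla replicate 1 (adjusted p = 0.0507) or replicate 2 (adjusted p = 0.0668). Without mouse 8 the difference was 4.73 (adjusted p = 0.00096), and Sp100 was then called lower (-2.24 ± 0.38, adjusted p = 0.0024).

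The neighbouring copy Ifit3 and the related Ifit2 leaned the same way without passing. Ifit3 gave 12.40, 11.30 and 11.26 in donor medulla, a difference of 2.71 ± 0.75 (adjusted p = 0.05, just above the threshold) from the BALB/c arrays. Without BALB/c medulla replicate 3, the array at 11.92, it was 3.69 ± 0.56 (adjusted p = 0.00094). Ifit2 gave 11.58, 11.61 and 11.42 in donor medulla and 7.32, 10.98, 9.45 and 10.39 in BALB/c medulla, a difference of 2.00 ± 0.59 (adjusted p = 0.063), which passed without BALB/c medulla replicate 2 (2.48 ± 0.57, adjusted p = 0.024). Ifit1, the remaining member of the family, gave 8.02, 8.07 and 8.77 against 8.15, 8.26, 8.31 and 7.87, with overlap. Because Ifit3 and Ifit3b are near-identical copies, the signal of either is uncertain. The 37 members had a median of 0.08, against -0.11 over all genes. Epithelium-wide genes rose here too (6 of 13 called higher, median 1.48), while 1.73% of all genes were called higher. Their part in the Ifit3b difference was not tested.

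**Figure D3:**
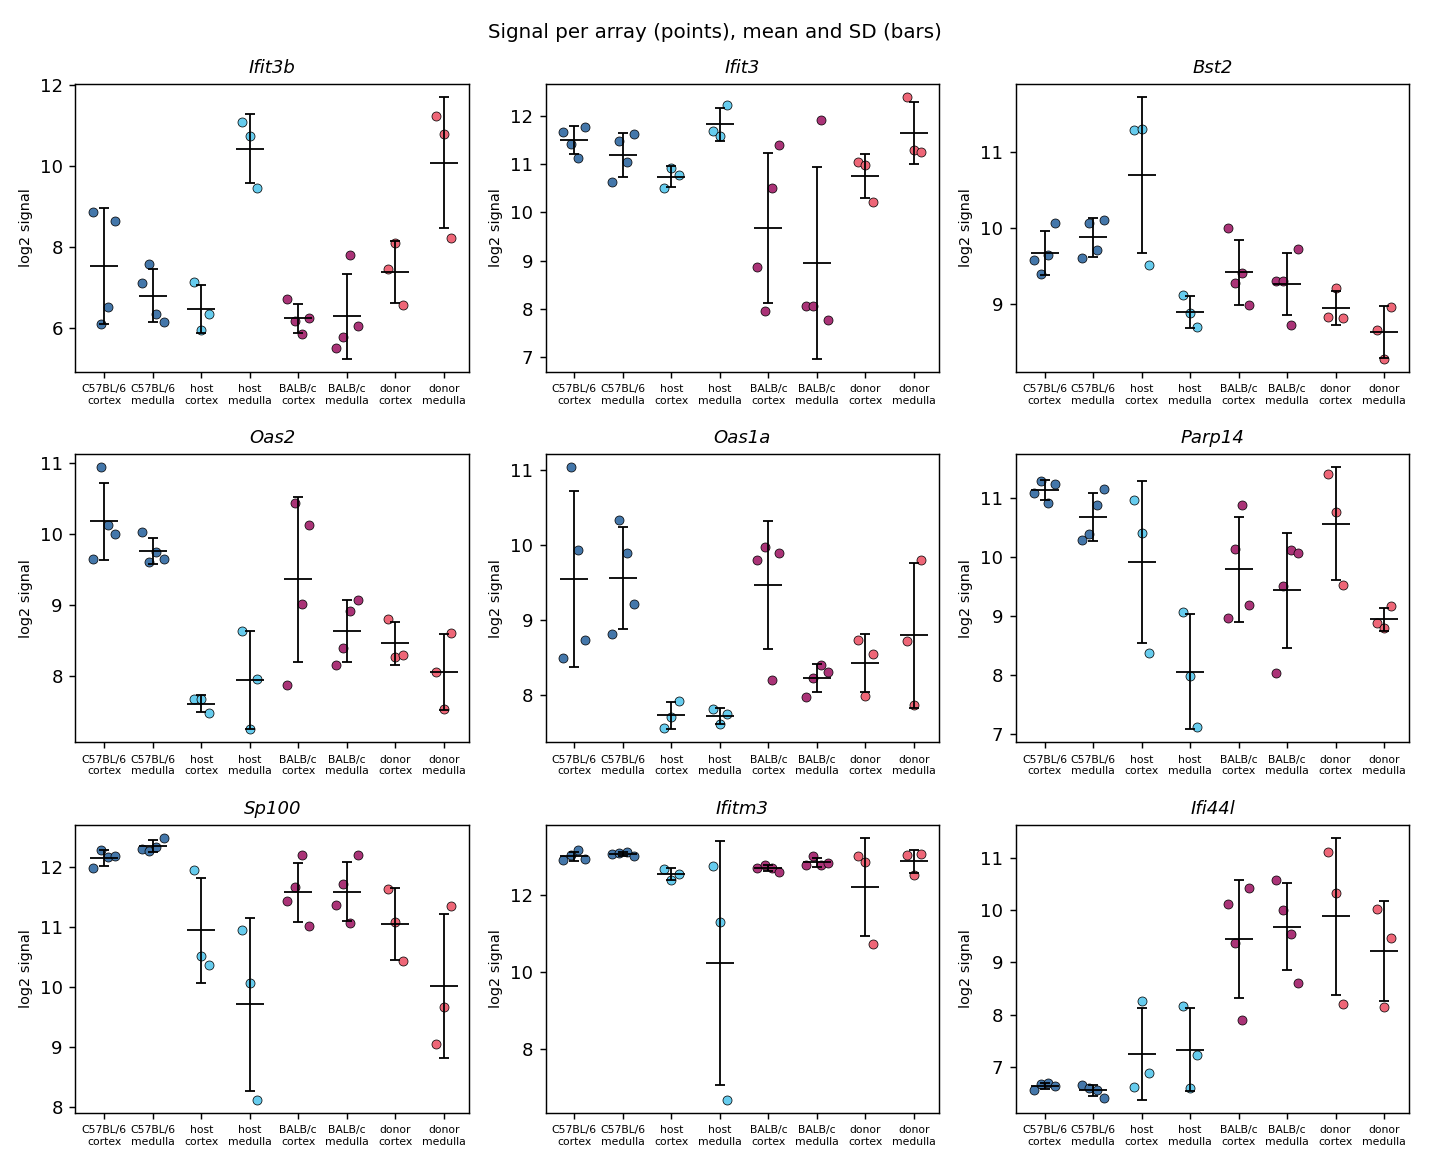
Log2 signal per array (points) with mean and SD (bars) in the 8 populations for Ifit3b, Ifit3, Bst2, Oas2, Oas1a, Parp14, Sp100, Ifitm3 and Ifi44l; each panel has its own vertical axis. Ifit3b is highest in graft medulla of both origins (8.23 to 11.25), Bst2 in host cortex (9.51 to 11.29), Oas2 is low in both host populations, and a single host medulla array sets the low mean of Ifitm3.

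Host cells, compared with homeostatic C57BL/6 cells of the same region, had lower signal of several effector genes. In cortex 3 of 37 members fell (2.15% of all genes were called lower) and none rose, with a median of -0.46 against -0.01 over all genes and 28 members below 0. Oas2 gave 9.65, 10.94, 10.12 and 10.00 in C57BL/6 cortex and 7.68, 7.68 and 7.47 in host cortex, a difference of -2.57 ± 0.45 (SE; adjusted p = 0.001). The 3 host arrays lay close together, far below the lowest C57BL/6 array. Oas1a, of the same enzyme family, fell by 1.82 ± 0.52 (adjusted p = 0.048), from 8.49, 11.04, 9.94 and 8.73 to 7.56, 7.70 and 7.92. Xaf1, a promoter of apoptosis that binds the inhibitor XIAP, fell by 1.90 ± 0.45 (adjusted p = 0.015), from 10.09, 9.80, 10.75 and 9.98 to 8.60, 8.83 and 7.33. None of these 3 genes overlapped between the groups, but as they were called on the same arrays this is not separate support. The Oas2 call was kept whichever array was left out. Oas1a was lost without C57BL/6 cortex replicate 2 or 3 or any 1 host cortex array (adjusted p 0.1 to 0.18), and Xaf1 without C57BL/6 cortex replicate 3 or host cortex replicate 3 (0.0559 and 0.141). Without host cortex replicate 1, Mx1 was called, at -2.68 ± 0.69 (adjusted p = 0.02). From C57BL/6 to host cortex the leukocyte-wide list went from a mean of 11.30 ± 0.09 to 10.28 ± 1.01. A list of 10 resident macrophage genes went from 11.59 ± 0.04 to 8.54 ± 0.31, and the epithelium-wide list from 7.99 ± 0.11 to 8.93 ± 0.28. The part of these shifts in the lower calls was not tested.

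Bst2 leaned upward in host cortex. It gave 11.28, 11.29 and 9.51 there and 9.58, 9.40, 9.64 and 10.07 in C57BL/6 cortex, a difference of 1.02 that did not pass (adjusted p = 0.094). Mice 6 and 7 lay above every C57BL/6 array and mouse 8 among them. Without the graft arrays of mouse 8 the difference was 1.61 ± 0.27 (adjusted p = 0.0018), Oas2 stayed called and the calls of Oas1a and Xaf1 were lost. The antibody target of Bst2 is used in mice to mark plasmacytoid dendritic cells. A list of 8 measured plasmacytoid genes (Bst2 not among them) averaged 10.69, 9.47 and 8.10 in host cortex of mice 6, 7 and 8 and 8.11 to 8.29 in C57BL/6 cortex, with Siglech higher by 2.69 ± 0.59 (adjusted p = 0.0081) and Ccr9 by 2.49 ± 0.64 (adjusted p = 0.025). In all, 4 of the 8 were called higher, while 4.17% of all genes were called in either direction. The part of the plasmacytoid genes in the Bst2 values was not tested.

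Host cells of the graft medulla had the most member calls of the 16 comparisons: 9 of 37 fell and 1 rose, while 5.22% of all genes were called lower and 6.28% higher. The median was -0.77, against 0.07 over all genes, and 28 members were below 0. All 3 sensors fell. Zbp1, which recognises left-handed nucleic acid helices, fell by 1.92 ± 0.39 (adjusted p = 0.0015), from 10.22, 9.95, 9.67 and 9.23 to 8.13, 7.37 and 8.03. Ifih1, the sensor of long double-stranded RNA, fell by 2.01 ± 0.56 (adjusted p = 0.018), from 11.26, 10.83, 11.46 and 10.81 to 9.98, 9.61 and 7.66. Dhx58, a helicase that modulates such sensing, fell by 1.14 ± 0.36 (adjusted p = 0.038), from 7.35, 9.06, 8.32 and 7.93 to 7.31, 6.65 and 7.11. The host arrays lay below the C57BL/6 arrays for each of the 3, narrowly for Dhx58.

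Among the OAS enzymes in host medulla, Oas2 fell by 1.82 ± 0.45 (adjusted p = 0.0076), from 10.03, 9.61, 9.75 and 9.65 to 8.63, 7.25 and 7.95, and Oas1a by 1.84 ± 0.52 (adjusted p = 0.02), from 8.81, 10.33, 9.90 and 9.21 to 7.81, 7.61 and 7.74. Oas3, Oasl1 and Oasl2 did not pass, and Oasl2 differed by -1.58 (adjusted p = 0.068). Mx1, of the dynamin-like GTPase family, fell by 2.46 ± 0.65 (adjusted p = 0.013), from 9.35, 9.79, 9.28 and 8.57 to 6.94, 6.79 and 6.63. Parp14, an ADP-ribosyltransferase, fell by 2.62 ± 0.59 (adjusted p = 0.004), from 10.29, 10.39, 10.88 and 11.16 to 9.07, 7.98 and 7.13. Sp100, a component of nuclear bodies that silence viral genomes, fell by 2.64 ± 0.54 (adjusted p = 0.0016), from 12.30, 12.27, 12.34 and 12.49 to 10.95, 10.06 and 8.12. On the low side, Mx1 and Dhx58 exceeded the filter level on 0 of 3 host medulla arrays. Again none of the genes called lower overlapped between the groups. They were called on these same arrays, so this is not separate support. For Ifih1, Parp14 and Sp100 the array of mouse 8 was the lowest.

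Ifitm3, which blocks virus entry at endosomal membranes, rested on that array. It gave 13.05, 13.08, 13.12 and 13.00 in C57BL/6 medulla and 12.74, 11.28 and 6.68 in host medulla, a difference of -2.83 ± 0.79 (adjusted p = 0.019). Without host medulla replicate 3 the difference was -1.05 (adjusted p = 0.134). Without all 4 graft arrays of mouse 8 the same difference had an adjusted p of 0.0097. Leaving out host medulla replicate 3 reduced the member calls from 10 to 5, with Mx1 (adjusted p = 0.0505), Oas1a (0.0572), Ifih1 (0.184) and Dhx58 (0.0792) also lost. The share of all genes called was then 9.45%, against 11.5% in the reported fit. Zbp1, Sp100, Parp14, Oas2 and Ifit3b stayed. Other single arrays mattered for Oas1a (C57BL/6 medulla replicate 2 or 3, or host replicate 2), Dhx58 (C57BL/6 replicate 2, 3 or 4, or host replicate 2), Ifih1 (C57BL/6 replicate 3) and Oas2 (host replicate 2), with adjusted p from 0.0505 to 0.176. Without the graft arrays of mouse 8, 8 members were called, now including Bst2 (-0.88 ± 0.27, adjusted p = 0.049), while 10.4% of all genes were called.

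Ifit3b was the member that rose in host medulla. It gave 11.10, 10.74 and 9.47 there and 7.12, 7.58, 6.36 and 6.16 in C57BL/6 medulla, a difference of 3.63 ± 0.72 (adjusted p = 0.0013) that stayed called whichever array was left out. Only 1 of 4 C57BL/6 medulla arrays exceeded the filter level, and the strict filter (a mean over all arrays above the median probeset) leaves Ifit3b out of the tests. Ifit3 gave 11.69, 11.58 and 12.22 against 10.62, 11.49, 11.04 and 11.62, and Ifit2 gave 12.21, 12.17 and 11.22 against 10.76, 10.53, 10.87 and 11.34. Neither passed, and both overlapped their C57BL/6 arrays. In this comparison 17 of 21 leukocyte-wide genes fell (median -3.12), Ptprc, which encodes CD45, fell by 3.12 ± 0.40, and 12 of 13 epithelium-wide genes rose (median 2.35). Among all genes 5.22% were called lower and 6.28% higher. The members' median of -0.77 lay between that of the leukocyte-wide genes and that of all genes. The part of these shifts in the 9 lower calls, and in Ifit3b, was not tested.

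**Figure D4:**
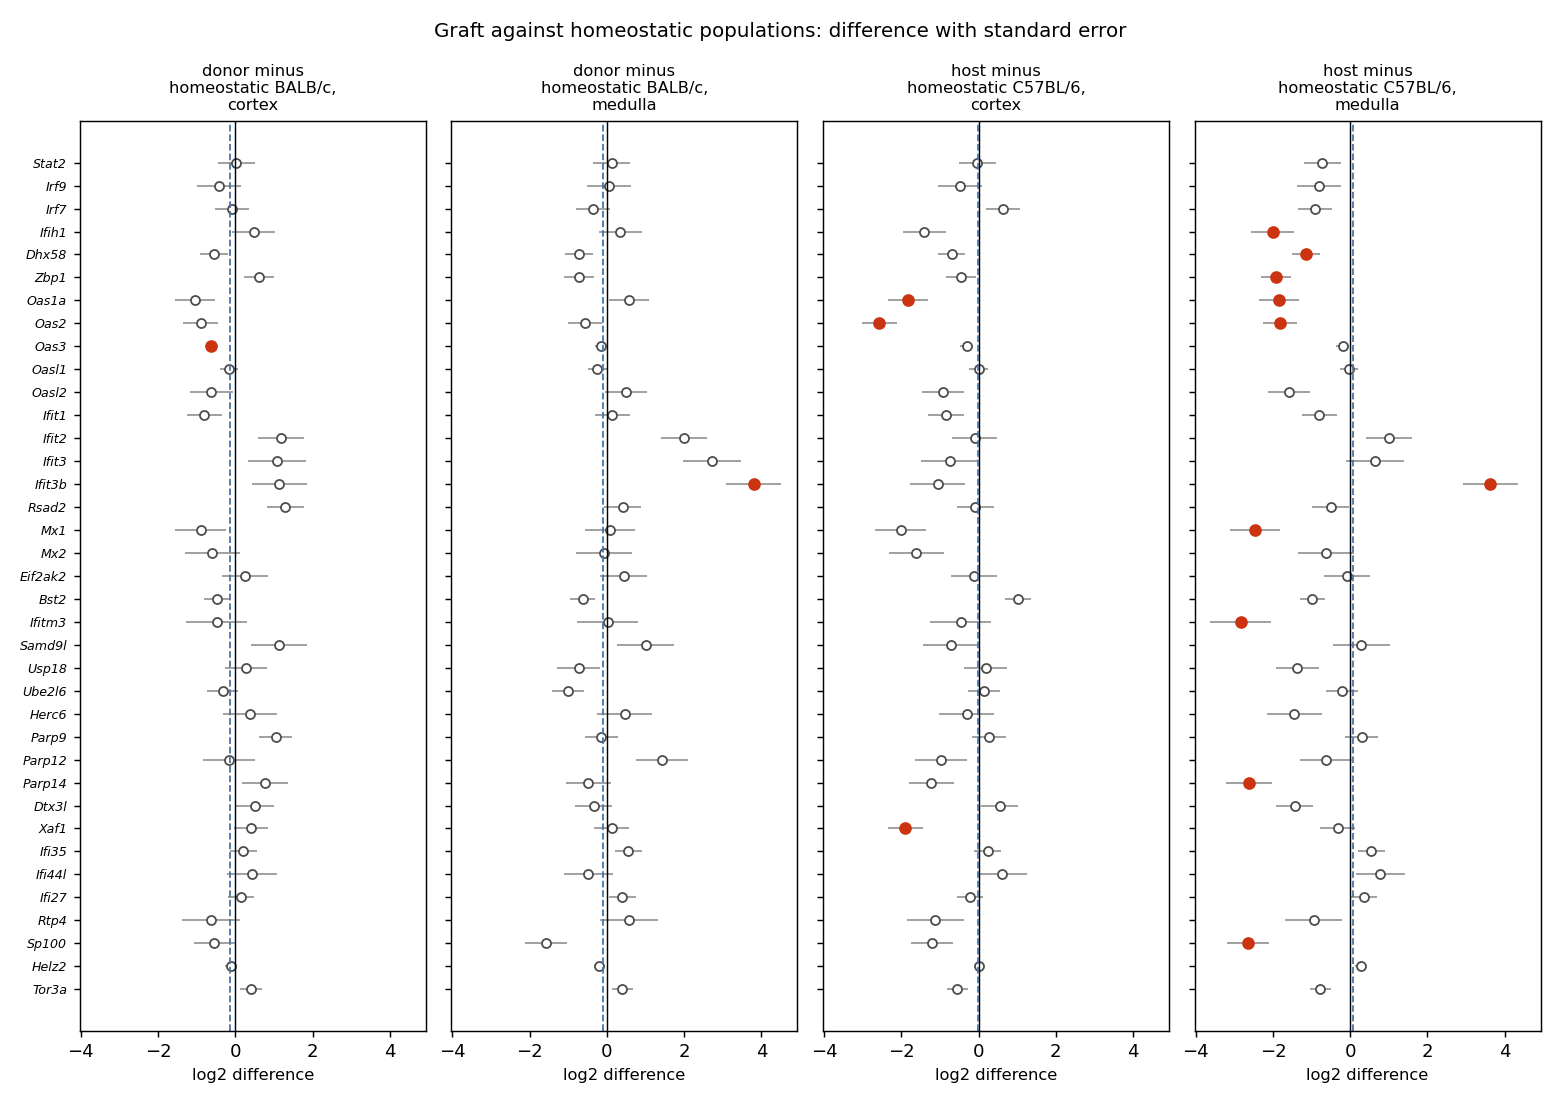
Log2 difference with its SE for the 37 tested genes (rows, grouped by role) in the 4 comparisons of graft with homeostatic cells; filled red points are called at an adjusted p under 0.05, open points are not, and the dashed line is the median of all tested genes. The calls number 1, 1, 3 and 10 from left to right, and Ifit3b lies far to the right in both medulla panels.

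Between regions of the graft, Ifit3b was higher in medulla and several other members were lower. In host cells it gave 7.13, 5.96 and 6.35 in cortex and 11.10, 10.74 and 9.47 in medulla, a difference (medulla minus cortex) of 3.96 ± 0.77 (SE; adjusted p = 0.0025). It was the only member called higher, against 1.86% of all genes. None of the host cortex arrays (0 of 3) exceeded the filter level for Ifit3b, so this difference too is from a signal in the dim range, and the strict filter leaves the gene untested. A further 3 members were lower, against 2.43% of all genes. Bst2 was lower by 1.79 ± 0.35 (adjusted p = 0.0028), from 11.28, 11.29 and 9.51 in cortex to 9.12, 8.88 and 8.70 in medulla. Irf7, the factor that amplifies interferon gene transcription, was lower by 1.65 ± 0.47 (adjusted p = 0.046), from 10.09, 9.96 and 8.42 to 7.57, 8.20 and 7.74. Dtx3l was lower by 1.88 ± 0.51 (adjusted p = 0.035), from 10.54, 10.36 and 9.40 to 8.51, 8.81 and 7.34. None of the 4 genes overlapped between the regions, which is not separate support, since the calls come from the same arrays.

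Each graft gave 1 cortex and 1 medulla array of host cells, so these values are paired by animal. The regions did not overlap for any of the 4 genes, so every animal had to show the direction of the difference. With mouse as a fixed replicate block in a fit of the 6 host arrays, none of the 4 passed (adjusted p = 0.084 for Ifit3b, 0.092 for Dtx3l, 0.26 for Bst2 and 0.3 for Irf7). With mouse as a random block over all arrays, all 4 stayed called. Ifit3b and Bst2 were kept whichever array was left out. Irf7 was lost without any 1 host array other than cortex replicate 3 (adjusted p 0.0594 to 0.226), and Dtx3l without cortex replicate 1 or 2 or medulla replicate 1 or 3 (0.0532 to 0.213). Without host cortex replicate 3, Zbp1 (-1.69 ± 0.43, adjusted p = 0.025) and Parp14 (-2.63 ± 0.62, adjusted p = 0.015) were also called, and without host medulla replicate 1, Ifitm3 (-3.56 ± 0.75, adjusted p = 0.0064). Of the plasmacytoid list all 8 genes were lower in host medulla, with differences of -0.32 to -2.43. Only 1 was called, Siglech, at -2.43 ± 0.63 (adjusted p = 0.026). Leukocyte-wide genes were lower too (8 of 21 called, median -1.43), while 4.29% of all genes were called in either direction.

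In donor cells the same regional comparison called no member by limma, with 5 at an unadjusted p under 0.05; 2.55% of all genes were called. The median was -0.37, against 0.11, and 26 of 37 were below 0. Ifit3b gave 7.46, 8.11 and 6.58 in donor cortex and 11.25, 10.79 and 8.23 in donor medulla. Its difference was 2.71 ± 0.77 (adjusted p = 0.066). The regions did not overlap, so all 3 mice had to show this direction. Zbp1 gave 10.26, 9.89 and 9.09 in cortex and 8.01, 8.74 and 8.29 in medulla, a difference of -1.40 ± 0.42 (adjusted p = 0.084). With mouse as a random replicate block both passed (adjusted p = 0.034 and 0.046), and with mouse as a fixed replicate block in a fit of the 6 donor arrays 0 of 37 members passed. Without donor cortex replicate 3, Zbp1 (-1.73 ± 0.45, adjusted p = 0.04), Parp9 (-2.01 ± 0.43, adjusted p = 0.01) and Dtx3l (-1.97 ± 0.46, adjusted p = 0.021) were called lower, and without donor medulla replicate 3, Ifit3b was called higher (3.64 ± 0.76, adjusted p = 0.0088). Without the graft arrays of mouse 8 there were 4 calls, Ifit3b higher and Parp9, Dtx3l and Sp100 lower, while 2.67% of all genes were called.

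Whether a regional difference in the graft departed from that of the homeostatic kidney was tested directly. For host against C57BL/6 cells, medulla minus cortex of Ifit3b was higher by 4.69 ± 1.02 (adjusted p = 0.024). That of Bst2 was lower by 1.99 ± 0.47 (adjusted p = 0.039), at -1.79 in host cells, where medulla lay below cortex. Among all genes 0.503% were called higher and 0.398% lower. Both calls were lost on leaving out several single arrays, at adjusted p 0.0504 to 0.076 for Ifit3b (C57BL/6 cortex replicate 1 or 4, medulla replicate 3 or 4, host cortex replicate 2, host medulla replicate 1 or 2) and 0.0508 to 0.151 for Bst2 (C57BL/6 cortex replicate 1, 2 or 3, any 1 C57BL/6 medulla array, host cortex replicate 1 or 2, host medulla replicate 2 or 3). For donor against BALB/c cells no member passed by limma, with 3 at an unadjusted p under 0.05 and 0.454% of all genes called; the members' median was 0.07, as was that of all genes.

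Donor and host cells of the same grafts differed in 1 called member. In graft cortex Bst2 was lower in donor cells by 1.74 ± 0.35 (SE; adjusted p = 0.023), with donor arrays at 8.83, 9.21 and 8.82 and host arrays at 11.28, 11.29 and 9.51, and 0.126% of all genes were called lower. The groups did not overlap, so all 3 mice had to show this direction. With mouse as a fixed replicate block in a fit of the 6 arrays the adjusted p was 0.68, and the call was also lost without donor cortex replicate 1 or 3 or host cortex replicate 1 or 2 (adjusted p 0.06 to 0.137). Plasmacytoid genes were lower in the donor cells as well (3 of 8 called), a mean of 7.79 ± 0.00 against 9.42 ± 1.29, and their part in the Bst2 difference was not tested. Ifi44l was higher in donor cells by 2.64 ± 0.68 without passing (adjusted p = 0.11), and passed without donor cortex replicate 3 (3.48 ± 0.66, adjusted p = 0.0099). In graft medulla no member passed by limma, with 3 at an unadjusted p under 0.05, while 0.593% of all genes were called. Without host medulla replicate 1, Ifitm3 was called there (3.89 ± 0.75, adjusted p = 0.011).

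The donor-host difference was also set against the strain difference of homeostatic cells, which carries the same strains without a graft. No member passed by limma in cortex (7 at an unadjusted p under 0.05; 0.775% of all genes called) or in medulla (10 at an unadjusted p under 0.05; 1.14% of all genes called). The share of all genes at an unadjusted p under 0.05 was not counted, so the 7 and 10 members have no background beside them. The medians lay above those of all genes, at 0.49 against -0.12 in cortex and 0.86 against -0.19 in medulla, where 31 of 37 members were above 0. These values share the homeostatic arrays of the strain comparison, in which 32 of 37 members were below 0, so the 2 medians are not separate results. Xaf1 was nearest to passing in cortex, at 2.31 (adjusted p = 0.084), and passed with mouse as a random replicate block (adjusted p = 0.049) and without the graft arrays of mouse 8 (2.40 ± 0.59, adjusted p = 0.043), when Bst2 also passed (-2.01 ± 0.39, adjusted p = 0.015). Single arrays added calls of Xaf1 (donor cortex replicate 3 left out, 2.86 ± 0.61, adjusted p = 0.018), Bst2 (host cortex replicate 3, -2.08 ± 0.36, adjusted p = 0.0068), Ifitm3 in medulla (host medulla replicate 1, 4.10 ± 0.95, adjusted p = 0.032) and Ifit3 in medulla (BALB/c medulla replicate 3, 3.05 ± 0.77, adjusted p = 0.049).

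The 19 members never called included the signal carriers Stat2 and Irf9. Stat2 ranged between group means of 8.25 ± 0.23 in BALB/c medulla and 9.35 ± 0.87 in C57BL/6 cortex, and Irf9, which gives the complex its DNA contact, between 8.22 ± 0.82 in BALB/c medulla and 9.61 ± 1.28 in BALB/c cortex. Of the ISG15 system, which tags proteins with a ubiquitin-like modifier, Herc6 (the main ligase in mice), Ube2l6 (its conjugating enzyme) and Usp18 (the protease that removes the tag) were never called. Herc6 in graft cortex was at 11.20, 11.25 and 8.20 in donor and 10.38, 11.10 and 8.68 in host cells, with mouse 8 low in both. Usp18 gave 9.34, 9.22 and 7.60 in host cortex and 8.85, 8.00 and 7.35 in donor cortex, again lowest in mouse 8. Among the tested members never called, the smallest ranges of group means were those of Helz2, a helicase, with group means of 7.46 to 7.85, Oasl1, a regulator of Irf7 translation, with 8.12 to 8.37, and Ifi27, a small membrane protein, with 10.30 to 11.03. Eif2ak2, the kinase PKR that stops translation on sensing double-stranded RNA, held 9.96 to 10.40 in 6 of the 8 groups and was lower in BALB/c medulla (8.98 ± 1.34) and donor medulla (9.41 ± 1.65), where single arrays ranged from 7.60 to 10.80. Mx2, Rtp4, Parp12, Oasl2, Ifit1, Ifi35 and Tor3a were likewise never called. Cmpk2 and Oas1b, below the filter, had group means of 6.72 to 6.93 and 6.16 to 7.45.

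The other genes of the pathway were taken from lists of ligands, receptors, sensors, regulators and the interferon-gamma side. Of 16 listed type I and related interferon ligands 12 were measured and 8 tested. Ifnb1, which encodes interferon beta, had group means of 6.37 to 7.14 and was not above the filter. Donor cortex had 7 of 8 ligands called lower than BALB/c cortex, and donor medulla 2 of 8 called lower than BALB/c medulla. No ligand was called higher in either. In the cortex comparison 16% of all genes were called lower, and in the medulla comparison 3.18% were called in either direction. The 12 measured ligands averaged 8.13 ± 0.15 in BALB/c cortex and 8.10 ± 0.11 in BALB/c medulla, above the 7.40 to 7.69 of the other groups, homeostatic C57BL/6 cells included. These means lie at or little above the filter level of the arrays (7.27 to 7.63), in the dim range. The array medians differed too, at 7.73 to 7.88 in BALB/c, 7.64 to 7.69 in C57BL/6 and 7.60 to 7.81 in graft arrays. Their part in the ligand means was not tested. Ifna12 averaged 8.57 ± 0.58 in BALB/c cortex and 8.62 ± 0.34 in BALB/c medulla, and 7.31 to 7.52 in the other 6 groups, donor cells included. No ligand was called between host and C57BL/6 cells.

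The receptor chain Ifnar1 was lower in host cells of both regions, and Ifnar2 in those of the medulla. Ifnar1 averaged 10.72 ± 0.24 and 10.70 ± 0.18 in C57BL/6 cortex and medulla and 9.49 ± 0.76 and 8.86 ± 0.22 in host cortex and medulla, differences of -1.23 ± 0.33 (adjusted p = 0.033) and -1.84 ± 0.33 (adjusted p = 0.00044). It was also lower in homeostatic BALB/c than C57BL/6 cells, by 1.10 ± 0.30 in cortex and 1.02 ± 0.30 in medulla. Ifnar2 averaged 12.26 to 12.95 in all groups but the graft medulla, where it was 12.14 ± 0.44 in donor and 9.28 ± 1.49 in host cells. Its difference from C57BL/6 medulla was -3.55 ± 0.39 (adjusted p = 1.5e-06), and donor cells of the graft medulla exceeded host cells by 2.86 ± 0.42 (adjusted p = 0.00044). Of 11 tested sensors and adaptors, Ddx58, which encodes the RNA sensor RIG-I, was the only call in donor cortex, higher by 1.70 ± 0.53 (adjusted p = 0.025), with overlap between the groups. Against C57BL/6 medulla, where 6.28% of all genes were called higher and 5.22% lower, host medulla had 1 of 11 sensors and adaptors higher (Mavs, the adaptor of the RNA sensors, by 0.96 ± 0.30) and 2 lower (Tlr9 and Trim25). Among the interferon regulatory factors 2 of 5 fell in host medulla, Irf1 by 1.73 ± 0.49 and Irf5 by 1.64 ± 0.31, and of the negative regulators 1 of 5, Ptpn6, by 2.26 ± 0.37.

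Genes of the interferon-gamma side, a list of targets with the ligand and its receptor chains, included several calls in donor cortex. Of 10 tested, 3 rose and 2 fell against BALB/c cortex, where 23.9% of all genes were called and 16% were called lower. Those that fell were Ifngr1, a receptor chain, by 1.56 ± 0.54, and Ciita, the activator of MHC class II genes, by 1.02 ± 0.29. Cxcl10, a T cell chemokine that type I interferon also induces, averaged 11.68 ± 0.43 in donor cortex and 8.31 ± 0.81 in BALB/c cortex (3.37 ± 0.60, adjusted p = 0.00078), without overlap. Cd274, the gene of the inhibitory T cell ligand PD-L1, averaged 9.86 ± 0.27 and 8.04 ± 0.14 (1.82 ± 0.29, adjusted p = 0.00033), also without overlap. Cxcl9, a related chemokine, averaged 11.43 ± 1.23 and 9.88 ± 1.01 (1.55 ± 0.53, adjusted p = 0.039), with overlap. In contrast to Ifit3b, all 3 were lower in graft medulla than in graft cortex: Cxcl10 differed by -3.24 ± 0.64 in donor and -3.19 ± 0.64 in host cells, Cxcl9 by -2.91 ± 0.57 and -3.57 ± 0.57, and Cd274 by -2.42 ± 0.31 and -1.46 ± 0.31. These 3 were named for being high in donor cortex, and the same arrays enter the donor regional differences. Between graft regions 2.55% of all genes were called in donor cells and 4.29% in host cells. Whether the interferon-gamma genes and the effector genes differ in their response as groups was not tested.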

How the data were processed

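Dendritic cells were sorted by fluorescence-activated cell sorting, and their RNA was isolated (RNeasy Micro) and amplified (NuGEN Ovation One-Direct) before hybridisation, per the labels' protocols. The deposited values are log2 signals per probeset, made by the authors with RMA in oligo per the submitters' processing notes; the sources used here give neither versions nor a genome build. Of 22549 probesets, 20646 had 1 gene symbol, 551 several and 1352 none listed; probesets with 1 symbol gave 19272 genes, 19258 of them RefSeq symbols, and the brightest probeset stood for a gene. The arrays carry no read depth, and their number limits the precision.

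Tested genes were those with a signal above the array's 40th percentile on 3 or more arrays. One mean per group was fitted to the 28 arrays with limma 3.58.1 in R 4.3.3 (20 residual degrees of freedom, eBayes, p-values of the moderated test adjusted by Benjamini-Hochberg over 14325 genes, threshold 0.05). The 16 comparisons share arrays: homeostatic groups serve the strain, regional and graft comparisons. The fit was tested on simulated data.

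The labels' mouse numbers show that cortex and medulla arrays, and donor and host arrays, came from the same animals, so these comparisons are paired. Same-mouse arrays' deviations from their group means had mean correlations of -0.003 and -0.006 in the homeostatic strains, 0.155 and 0.106 between regions in donor and host cells, and 0.22 and 0.171 between donor and host cells in cortex and medulla. The replicates are labelled biological, so their spread includes that between animals.

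Members and gene lists were chosen with earlier results of these data known. Any listed member could be named; per comparison these are the called members, those with the largest differences and those called only under an alternative, the last chosen after their values were seen. Alternatives were other filters, a fit of only the groups compared, a repeated quantile normalization, averaged probesets, robust estimation with a variance trend, mouse as a block, each array left out, and, added after seeing the data, mouse 8 left out. Promoters came from RefSeq (GRCm38.p6).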

Additional observations from a re-analysis of the deposited data

Results flagged for a closer look

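In the homeostatic groups of 4 arrays, 9 of 160 combinations checked (each of the 39 genes, and their mean, in each group) had an array whose gap to the nearest other, divided by the group's range, exceeded Dixon's critical value, and chance flags about 1 in 20 groups. In BALB/c medulla, Ifit3 was 11.92 on replicate 3 (nearest array 8.06), Usp18 was 10.35 on replicate 1 (nearest 7.81) and Ube2l6 was 10.95 on replicate 2 (nearest 8.67). In BALB/c cortex, Oas1a was 8.20 on replicate 3 (nearest 9.80). In C57BL/6 cortex, Irf7 was 8.24 on replicate 1 (nearest 9.01), Zbp1 was 9.04 on replicate 2 (nearest 9.71) and Tor3a was 9.28 on replicate 2 (nearest 8.67). In C57BL/6 medulla, Stat2 was 10.01 on replicate 3 (nearest 8.94) and Rtp4 was 9.48 on replicate 1 (nearest 11.24). The flags fell on 8 different arrays, with 2 on C57BL/6 cortex replicate 2 and 1 on each of the others.

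The regional difference (medulla minus cortex) differed between host cells and homeostatic C57BL/6 cells for Ifit3b, by 4.69 ± 1.02, and for Bst2, by -1.99 ± 0.47, each by the limma test of the difference itself (adjusted p = 0.024 and 0.039).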

How the results depend on the processing

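The values here are numbers of effector genes called, out of 37 in the reported fit; no call changed direction under any alternative. Of the 26 calls, 16 were lost on leaving out at least 1 array, 14 when only the groups compared were fitted, 5 with a second quantile normalization, 2 without a filter, 1 with a variance trend and robust estimation, and none when all probesets of a gene were averaged; of those that could be refitted, 2 of 20 were lost with the strict filter and 5 of 22 without the graft arrays of mouse 8, an alternative chosen after seeing the data. The causes were not tested.

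The mouse numbers pair the arrays. With mouse as a fixed replicate block the calls went from 4 to 0 between regions in host cells and from 1 to 0 between donor and host cells in cortex. With mouse as a random replicate block all 26 calls were kept, and the calls were 2 between regions in donor cells (0 in the reported fit), 2 for donor against BALB/c cells in cortex and 2 in medulla (1 each), and 1 for the donor-host difference set against that of the strains in cortex (0). For host against C57BL/6 cells in medulla they were 11 (10), with Dtx3l gained (adjusted p = 0.043).

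Fitting only the groups compared gave 1 call between regions in host cells (4), 0 for donor against BALB/c cells in cortex and 0 in medulla (1 each), 1 for host against C57BL/6 cells in cortex (3), 1 between strains in medulla (3), 0 between donor and host cells in cortex (1) and 1 for the regional difference of host minus C57BL/6 cells (2). For donor against BALB/c cells, no filter gave 2 calls in cortex and 2 in medulla, a variance trend with robust estimation gave 2 and 2, and the strict filter gave 0 in cortex. The strict filter and the second quantile normalization each gave 1 call between strains in medulla and 1 for the regional difference of host minus C57BL/6 cells, as did the variance trend for the latter. Without the graft arrays of mouse 8 the calls were 4 between regions in donor cells, 4 and 2 for donor against BALB/c cells in cortex and medulla, and 2 for the donor-host difference set against that of the strains in cortex. In the same order, 2.67%, 32.7%, 6.4% and 2.12% of all genes were called in these refits.

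Leaving out 1 array at a time, the calls ranged from 0 to 3 between regions in donor cells and from 2 to 6 in host cells. They ranged from 1 to 4 and from 0 to 2 for donor against BALB/c cells in cortex and medulla, and from 1 to 3 and from 5 to 11 for host against C57BL/6 cells. Between strains they ranged from 1 to 2 in cortex and from 1 to 7 in medulla, and between donor and host cells from 0 to 1 in either region. The range was 0 to 2 for the regional difference of host minus C57BL/6 cells, and 0 to 1 for the donor-host difference set against that of the strains in either region. It was 0 throughout between regions of homeostatic cells of either strain and for the regional difference of donor minus BALB/c cells.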
